A study of Homo sapiens with 26 samples.

Results

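The expression of 10 genes was followed, of 26485 in the deposited tables: the hairpin target RUNX1T1 (ETO, also called MTG8), its paralogs CBFA2T2 (MTGR1) and CBFA2T3 (MTG16), the RUNX genes RUNX1, RUNX2 and RUNX3 with their partner CBFB, and the E-protein genes TCF3 (E2A), TCF4 (E2-2) and TCF12 (HEB). They were taken by gene symbol for their known ties to the RUNX1T1 protein, with earlier results of these data already known. ETO proteins do not bind DNA directly. They are brought to genes by transcription factors and carry co-repressors and histone deacetylases with them. RUNX proteins bind DNA as partners of CBFB, and the fusion of RUNX1 with RUNX1T1 in acute myeloid leukaemia made this family known. E proteins bind E-boxes, in neural crest derivatives usually in pairs with tissue-specific helix-loop-helix factors such as HAND2 or TWIST1, and ETO proteins are known to bind them and to oppose their activation of genes.

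The study sequenced RNA of KELLY, a MYCN-amplified cell line established from human neuroblastoma, in 26 libraries. Of these, 18 came from culture, 3 for each of 6 groups: a line with the empty lentiviral vector F1HUTG (EV) and lines with an inducible RUNX1T1 hairpin, either sh4 or shAMB, each kept for 72 h in doxycycline or in DMSO, its solvent. Every culture group therefore carries the vector, with its green fluorescent protein, and EV is the only line without a hairpin. The other 8 were xenografts in immunodeficient NSG mice, which lack T, B and NK cells but keep other host cells, 4 labelled Control (Control Food, genotype given as WT) and 4 labelled RUNX1T1 KO (Doxycycline Food). The study's methods describe xenografts of hairpin-carrying cells, so that KO is used here as a label only. No xenograft is labelled as carrying the empty vector. Doxycycline food and the KO label therefore cannot be told apart in any xenograft comparison. The study's text says that its first hairpin, built on an Ambion siRNA sequence, was the one used in mice, and the labels of the xenografts name none. In the culture columns, Neg was taken for DMSO and Pos for doxycycline on the wording only, and the direction of every culture comparison rests on this reading.

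The 250 bases before the start of transcription are shown for the 4 members that rose with doxycycline in the shAMB line (66.0% of all genes tested passed the threshold there, in either direction). For CBFA2T2 and RUNX3 that rise was gone once GC content and length trends were removed, as given with their values. They come from RefSeq on GRCh38.p14, at 1 start per gene, on the strand of the gene and 5′ to 3′. Capitals mark E-boxes (CANNTG, the same on both strands) and, in RUNX3, also the RUNX motif (TGTGGT or, on the other strand, ACCACA). No marked motifs overlap.
CBFA2T2, chr20:33562092-33562341, plus strand: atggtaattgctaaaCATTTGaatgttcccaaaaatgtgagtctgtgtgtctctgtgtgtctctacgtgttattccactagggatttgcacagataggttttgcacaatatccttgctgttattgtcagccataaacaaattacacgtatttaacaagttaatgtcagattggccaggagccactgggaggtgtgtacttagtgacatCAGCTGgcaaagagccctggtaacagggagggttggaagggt
RUNX3, chr1:24965011-24965260, minus strand: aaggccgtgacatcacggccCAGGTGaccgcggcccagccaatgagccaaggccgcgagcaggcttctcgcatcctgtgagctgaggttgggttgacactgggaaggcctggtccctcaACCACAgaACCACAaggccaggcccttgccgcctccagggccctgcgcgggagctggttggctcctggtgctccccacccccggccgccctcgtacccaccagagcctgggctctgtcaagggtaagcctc
TCF4, chr18:55635958-55636207, minus strand: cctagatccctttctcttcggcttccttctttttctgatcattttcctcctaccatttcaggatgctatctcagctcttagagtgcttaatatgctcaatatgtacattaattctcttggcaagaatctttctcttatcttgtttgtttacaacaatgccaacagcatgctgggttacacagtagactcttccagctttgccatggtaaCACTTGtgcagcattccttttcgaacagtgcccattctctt
TCF12, chr15:56917840-56918089, plus strand: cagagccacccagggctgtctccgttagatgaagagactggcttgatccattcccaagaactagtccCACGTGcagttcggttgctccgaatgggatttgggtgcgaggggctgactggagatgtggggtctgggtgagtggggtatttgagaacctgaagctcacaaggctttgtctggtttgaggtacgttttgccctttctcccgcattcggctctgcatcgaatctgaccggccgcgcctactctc
CBFA2T2 held 2 E-boxes in this window and the others 1 each, and RUNX3 held 2 RUNX motifs. Of 35116 RefSeq windows of this length, 61.8% held an E-box and 10.98% a RUNX motif, so that an E-box is common in such a window. TCF3, which was tested and did not pass the threshold there, held no E-box. CBFA2T3, RUNX1 and RUNX2 were too low to be tested. Of these, CBFA2T3 and RUNX2 held 1 E-box each, RUNX1 none, and RUNX2 held 2 RUNX motifs. No window is given for RUNX1T1 or CBFB. A match is a description of the letters and not a measured binding site, and these genes have several starts among which the counts do not choose.

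On GRCh38 (GENCODE v44), the tested members lie at chr8:91954972-92103286 (RUNX1T1, minus strand), chr20:33490075-33650036 (CBFA2T2, plus), chr1:24899511-24965121 (RUNX3, minus), chr16:67028984-67101058 (CBFB, plus), chr19:1609291-1652615 (TCF3, minus), chr18:55222185-55664787 (TCF4, minus) and chr15:56918623-57299281 (TCF12, plus). Counts are per gene, over all exons, and at most 0.891% of the exonic bases of a tested member lie in an exon of another gene on the other strand.

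Libraries held 35115915 to 54736733 expected counts in culture and 47346063 to 62378060 in xenografts. The 8 sympathetic neuroblast markers checked (such as DBH) each had at least 10 counts in every library. Endothelial markers summed to at most 2.36 CPM and myeloid markers to at most 1.06 CPM in any library. The myeloid sum was 0.470 to 0.790 CPM in control xenografts and 0.862 to 1.06 CPM in those labelled KO. In the same order, the Schwann cell sum was 6.06 to 9.23 and 3.79 to 4.34 CPM, and the fibroblast sum 74.2 to 116 and 108 to 161 CPM. No marker of these 3 lists was at 0 in all libraries of a xenograft group. KELLY culture, without a mouse host, also gave the fibroblast and Schwann cell sums. The fibroblast sum was 101 to 127 CPM in EV cells with DMSO and 132 to 189 in sh4 cells with doxycycline. The Schwann cell sum was 4.52 to 4.88 and 5.55 to 6.42 CPM in these 2 groups. Neither sum is thus particular to xenografts. The myeloid sum was at most 0.425 CPM in any culture library, in shAMB cells with doxycycline, and so lay below that of every xenograft. EMCN, an endothelial marker, was at 0 in the KO xenografts. The part of such cells in the xenograft results was not tested. Replicates differed more than sampling noise allows, with a chi-square per degree of freedom of 1.81 to 64.5 in culture and 29.0 to 256 in xenografts, and each library counted as 1 replicate. Nothing in the labels says that replicates were separate cultures or animals, so that p-values measure the spread between these samples. The libraries also differed in how counts tracked base composition. This trend ran from −0.32 to −0.16 on the log2 scale per 10 points of GC content in the 3 shAMB libraries with DMSO and from 0.097 to 0.31 in those with doxycycline, so that it moved with the treatment in that line. The sh4 library with doxycycline numbered 3 stood apart from its replicates, at 0.25 against −0.21 and −0.12. Among the xenografts labelled KO, replicate 1 was highest, at 0.29, and replicate 4 lowest, at −0.25.

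Of the 10 members, 7 were expressed and entered the tests, and 3 were at or near 0. CBFA2T3, the ETO gene best known from blood cells, had no count in 15 of the 18 culture libraries and 4, 2 and 1 counts in the shAMB libraries with doxycycline. RUNX1, a factor of blood stem cells, had 0 to 4 counts in any culture library and RUNX2, the factor of bone formation, 0 to 1. A count of 0 allowed up to 0.0854 CPM, the value of 3 counts in the shallowest culture library (counting error only). In xenografts these genes reached at most 6 counts for CBFA2T3, 13 for RUNX1 and 15 for RUNX2. All 3 were under the minimum for testing in both tables.

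Per kilobase of transcript, which allows genes to be compared, the E proteins and CBFB stood above the ETO and RUNX genes in culture. In EV cells with DMSO, TCF12 was at 46.9 ± 2.65 CPM per kb (SD, n = 3), TCF4 at 41.8 ± 2.02, CBFB at 39.3 ± 1.95 and TCF3 at 12.9 ± 0.651. RUNX1T1 followed at 5.71 ± 0.329 CPM per kb, CBFA2T2 at 5.37 ± 0.135 and RUNX3 at 1.71 ± 0.301. The libraries of TCF4 and CBFB overlapped, as did those of RUNX1T1 and CBFA2T2, and the other neighbours in this order did not overlap. In control xenografts, whose table is scaled separately, the order was TCF12 (48.7 ± 4.00 CPM per kb, n = 4), TCF4 (47.4 ± 1.90), CBFB (34.5 ± 3.06), CBFA2T2 (9.92 ± 1.23), TCF3 (9.28 ± 1.38), RUNX1T1 (4.83 ± 0.750) and RUNX3 (1.58 ± 0.230). There TCF12 and TCF4 overlapped, and so did CBFA2T2 and TCF3. RUNX3 was the one RUNX gene that passed the minimum for testing, at a low level beside its partner CBFB, while RUNX2 had 3 to 15 counts in each xenograft. The ratio of CBFB to RUNX3 per kb was 23.5 ± 4.80 in EV cells with DMSO.

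**Figure D1:**
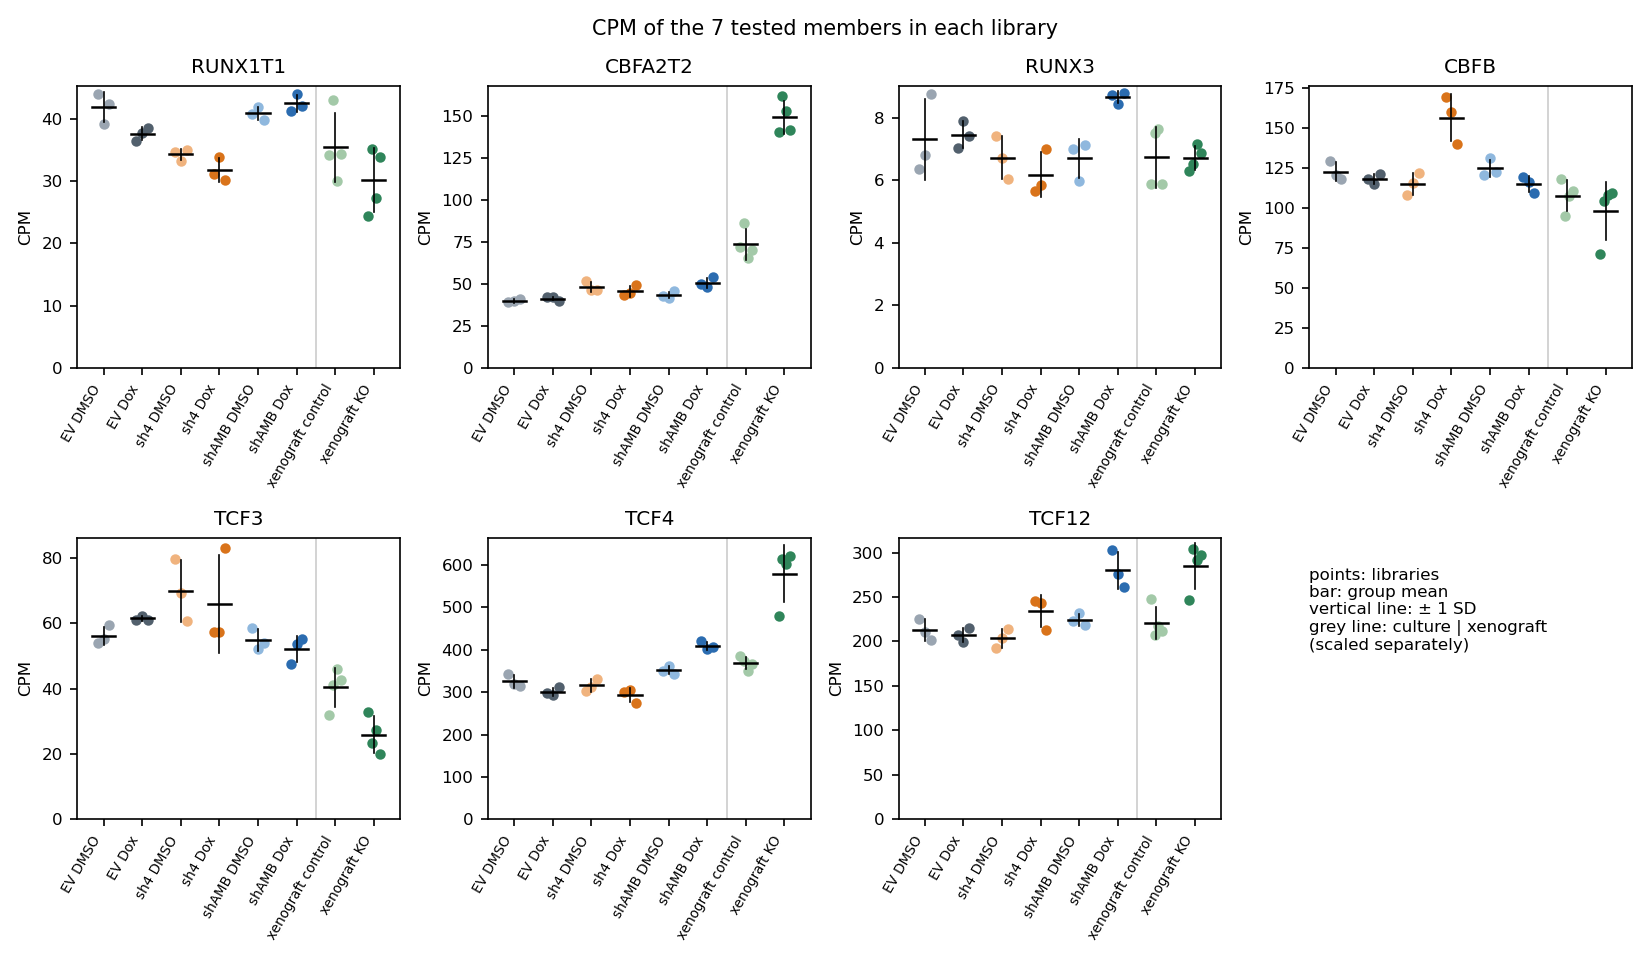
CPM (vertical axis, linear, from 0) of the 7 tested members in each library, by group on the horizontal axis. Points are libraries, horizontal bars are means and vertical lines ± 1 SD, with n = 3 in culture and n = 4 in xenografts. CBFA2T2 lies between 141 and 162 CPM in all 4 xenografts labelled KO, above every other library, and CBFB is highest in the sh4 group with doxycycline.

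The ETO genes were examined first, since RUNX1T1 is the target of both hairpins. It was not significantly changed in any of the 4 comparisons of treated with untreated libraries. In CPM (counts as a share of the library total, scaled by TMM), RUNX1T1 was at 34.7, 33.3 and 35.01 in sh4 cells with DMSO and at 31.2, 33.9 and 30.1 with doxycycline. The groups overlapped, and the log2 fold change was −0.11 (SE 0.0549, edgeR adjusted p 0.117). Cells of the shAMB line had 40.8, 42.0 and 39.9 CPM with DMSO and 41.3, 44.1 and 42.2 with doxycycline, again overlapping, with a log2 change of 0.056 (SE 0.0546, adjusted p 0.378), whose sign turned with RLE factors (−0.019). The EV line, without a hairpin, had 44.1, 39.3 and 42.4 CPM with DMSO and 36.5, 37.8 and 38.6 with doxycycline, which did not overlap, a log2 change of −0.16 (SE 0.0549, adjusted p 0.672). Control xenografts had 34.3, 43.1, 30.0 and 34.4 CPM, and those labelled KO 24.3, 35.2, 27.3 and 33.9, with a log2 change of −0.23 (SE 0.146, adjusted p 0.229). Once trends on GC content and gene length had been removed from each library, the fall passed the threshold in sh4, at −0.26 (adjusted p 0.000193), and in xenografts, at −0.36 (adjusted p 0.0110). The RUNX1T1 counts as deposited thus do not separate the hairpin and KO groups from their controls, and every direction given here is between libraries so labelled. The study itself reported less RUNX1T1 protein in KELLY cells after 72 h of doxycycline with each of its hairpins. It also reported loss of RUNX1T1 staining in KELLY xenografts. RNA counts do not measure protein. In bulk RNA, fewer cells with a transcript and less of it per cell cannot be told apart.

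CBFA2T2, which shares the co-repressor binding regions of RUNX1T1, showed the largest change of any member. It was at 71.9, 86.4, 65.4 and 70.0 CPM in control xenografts and at 141, 162, 153 and 141 CPM in those labelled KO. The groups were far apart, with a log2 change of 1.02 (2.03-fold, 95% interval 0.80 to 1.24, adjusted p 3.78e-05), and 13.0% of all genes tested changed at least as much. In the shAMB line the gene moved the same way by less, from 42.9, 41.7 and 45.4 CPM with DMSO to 49.6, 48.1 and 54.1 with doxycycline. All 3 treated libraries lay above the untreated ones, a log2 change of 0.22 (SE 0.0623, adjusted p 0.00524), but the change was 0.0065 (adjusted p 0.895) once GC content and length trends were removed. In the sh4 line the value was −0.082 (SE 0.0621, adjusted p 0.311) and in EV it was 0.051 (SE 0.0628, adjusted p 0.715).

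Among RUNX3 and CBFB, each hairpin line moved a different gene. RUNX3, a factor of T lymphocytes and of sensory neurons, was at 6.998, 5.98 and 7.11 CPM in shAMB cells with DMSO and at 8.73, 8.45 and 8.79 with doxycycline. Its groups did not overlap, with a log2 change of 0.37 (SE 0.123, adjusted p 0.0148). Without the second DMSO library it was 0.29 (adjusted p 0.0773), and without GC content and length trends −0.066 (adjusted p 0.427). In sh4 the RUNX3 change was −0.12 (SE 0.123, adjusted p 0.441), and in xenografts −0.0050 (SE 0.148, adjusted p 0.983), with an interval of −0.33 to 0.32 that leaves out a 2-fold change. CBFB, the subunit that raises the affinity of RUNX proteins for DNA and itself binds none, rose in sh4 cells from 108, 115 and 122 CPM with DMSO to 169, 160 and 140 with doxycycline. All 3 treated libraries were above every culture library of the other groups, and the log2 fold change was 0.44 (1.36-fold, SE 0.0652, adjusted p 5.07e-05). Without the third doxycycline library, which stood apart in GC trend, it was 0.52 (adjusted p 3.86e-06), and the call also held at 0.34 once GC and length trends were removed. CBFB was lower in all 3 shAMB libraries with doxycycline (119, 116 and 109 CPM) than in those with DMSO (120, 131 and 122), a log2 change of −0.12 that missed the threshold (SE 0.0653, adjusted p 0.127) and passed it with RLE factors (−0.19, adjusted p 0.0342). In xenografts CBFB was at 71.2 CPM in 1 library labelled KO and at 104 to 109 in the other 3, and the change was −0.13 (SE 0.134, adjusted p 0.453).

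The E proteins did not move as a block. TCF4, the E protein altered in Pitt-Hopkins syndrome, a disorder of neural development, was at 350, 363 and 343 CPM in shAMB cells with DMSO and at 420, 401 and 406 with doxycycline. The groups did not overlap and the log2 fold change was 0.22 (SE 0.0495, adjusted p 0.00122). It was at 385, 375, 350 and 367 CPM in control xenografts and at 480, 615, 604 and 621 in those labelled KO, where the first library was lowest and still above every control. The log2 fold change was 0.65 (1.57-fold, SE 0.101, adjusted p 0.000538), and 0.73 (adjusted p 7.12e-05) without that library. In sh4 cells TCF4 did not pass the threshold, at −0.11 (SE 0.0495, adjusted p 0.101), but fell by 0.30 (adjusted p 1.38e-07) once GC and length trends were removed. In EV cells, TCF4 was at 343, 319 and 314 CPM with DMSO and at 297, 293 and 312 with doxycycline, a log2 change of −0.11 (adjusted p 0.672).

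TCF12, an E protein with a role in neural progenitors, passed the threshold in all 3 comparisons of hairpin or KO libraries with their controls, the only member to do so. Of all genes tested, 40.9% passed in sh4, 66.0% in shAMB and 41.1% in xenografts. The share passing in all 3 was not counted, so that this is not shown to be particular to TCF12. TCF12 was at 223, 232 and 219 CPM in shAMB cells with DMSO and at 303, 276 and 262 with doxycycline, a log2 change of 0.32 (SE 0.0650, adjusted p 0.000485) with no overlap. In sh4 cells it was at 193, 203 and 215 CPM with DMSO and at 246, 243 and 213 with doxycycline, where the third treated library lay inside the range of the untreated ones, a log2 change of 0.20 (SE 0.0650, adjusted p 0.0212). The sh4 call was lost without the first or second library of either group (adjusted p 0.0562 to 0.157) and in a fit of the sh4 libraries alone (0.0928), and the value was 0.072 (adjusted p 0.0104) once GC and length trends were removed. Control xenografts had 247, 207, 217 and 212 CPM and those labelled KO 246, 304, 291 and 298, so that the groups overlapped by 1 library, with a log2 change of 0.37 (SE 0.0965, adjusted p 0.0111). With the replicate number as a block its adjusted p was 0.0589.

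TCF3, the E protein whose transcripts are the most GC-rich of the 7 tested members (62.6%), moved the other way in xenografts. It was at 31.9, 41.1, 45.9 and 42.7 CPM in controls and at 32.9, 23.5, 27.3 and 20.0 in those labelled KO. These overlapped by the first library of each group, and the log2 fold change was −0.64 (0.642-fold, SE 0.161, adjusted p 0.00886). TCF3 did not pass the threshold in culture, with log2 fold changes of −0.088 in sh4 (adjusted p 0.589), −0.075 in shAMB (adjusted p 0.604) and 0.13 in EV (adjusted p 0.676). The sh4 libraries with doxycycline were at 57.4, 57.3 and 83.2 CPM, beside 79.8, 69.4 and 60.9 with DMSO, and the libraries at 83.2 and 79.8 CPM had GC trends of 0.25 and 0.27. Without the third doxycycline library TCF3 fell by 0.29 in sh4 (adjusted p 0.0122). In the shAMB line the value became −0.91 (adjusted p 5.89e-07) once GC and length trends were removed, and the part of the GC trend in it was not tested.

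**Figure D2:**
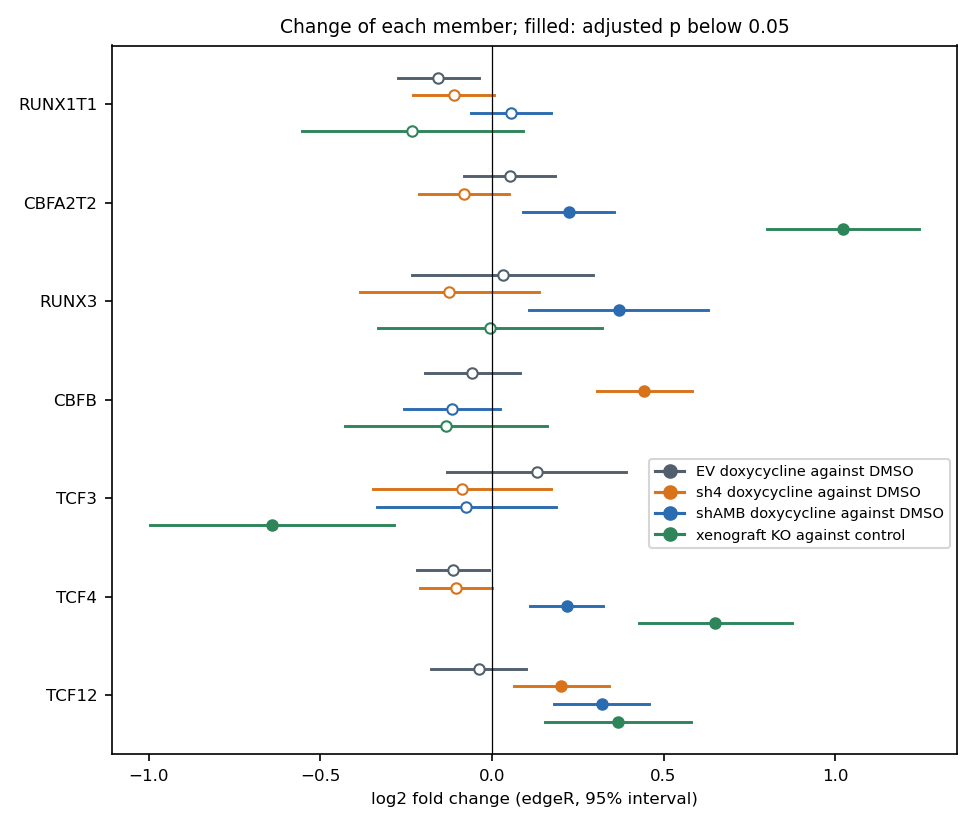
Log2 fold change (horizontal axis, edgeR) with its 95% interval for each tested member in the 4 comparisons, filled where the adjusted p was under 0.05. CBFA2T2 at 1.02, TCF4 at 0.65 and TCF3 at −0.64 in xenografts lie farthest from 0, and the RUNX1T1 points are open in all 4.

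Counted over members, 0 of 7 passed the threshold in EV, where 0.0939% of all genes tested did by edgeR (2 members had an unadjusted p under 0.05, and DESeq2 also called 0). In sh4, 2 of 7 passed, both higher, beside 40.9% of all genes tested. In shAMB, 4 of 7 passed, all higher, beside 66.0% of all genes. In xenografts, 4 of 7 passed, 3 higher and 1 lower, beside 41.1%. With so many genes past the threshold, these shares say nothing particular about the members. The median log2 fold change of the members was −0.088 in sh4, 0.22 in shAMB and −0.0050 in xenografts, where that of all genes was −0.0046, 0.096 and 0.019.

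Whether a line's response differed from that of the EV line was then tested directly. For sh4 against EV, 1 of 7 members differed, beside 32.6% of all genes tested: the CBFB effect was higher by 0.50 (SE 0.0923, adjusted p 0.000703). For TCF12 this difference was 0.24 (SE 0.0920, adjusted p 0.0570). For shAMB against EV, 3 of 7 differed, beside 45.5% of all genes, with differences of 0.36 for TCF12 (adjusted p 0.00487), 0.33 for TCF4 (adjusted p 0.00118) and 0.21 for RUNX1T1 (adjusted p 0.0353). The RUNX1T1 difference rested on the fall in EV as well as on the level in shAMB, and was lost with RLE factors (adjusted p 0.143), DESeq2 (0.147), the replicate block (0.0513), removal of GC and length trends (0.160) and 8 of 12 single libraries left out. Between both hairpin lines, 4 of 7 members differed, beside 60.9% of all genes. The sh4 effect was higher for CBFB by 0.56 (SE 0.0923, adjusted p 0.000103), and lower for CBFA2T2 (−0.30, adjusted p 0.00753), RUNX3 (−0.49, adjusted p 0.0224) and TCF4 (−0.32, adjusted p 0.00107). For RUNX3 this difference was 0.067 (adjusted p 0.589) once GC and length trends were removed. All these comparisons share control libraries with the ones above.

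The lines already differed before induction. With DMSO, 2 of 7 members differed between sh4 and EV, beside 1.12% of all genes tested. RUNX1T1 was lower in sh4 (34.3 ± 0.898 against 41.9 ± 2.41 CPM, n = 3 each), a log2 change of −0.29 (SE 0.0549, adjusted p 0.0144) with no overlap. CBFA2T2 was higher (48.1 ± 3.04 against 39.8 ± 1.00 CPM), at 0.28 (SE 0.0624, adjusted p 0.0439), also with no overlap. Line and hairpin cannot be told apart with 1 line per hairpin. The RUNX1T1 call was lost without the first EV library (adjusted p 0.106) or the first or second sh4 library (0.0733 and 0.0960), and that of CBFA2T2 without any single library (0.0505 to 0.252). Between shAMB and EV, 0 of 7 members differed by edgeR, beside 1.52% of all genes (1 member at an unadjusted p under 0.05, and 0 by DESeq2).

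Ratios within a library, which do not depend on scaling between libraries, are given as a description. GC trends were not removed from them, the members differ in GC content, and the part of these trends in the ratios was not tested. CBFA2T2 RNA per kb stood in a ratio to RUNX1T1 of 0.944 ± 0.0637 in EV cells with DMSO and 1.09 ± 0.0569 with doxycycline. It was 1.39 ± 0.0824 and 1.43 ± 0.167 in sh4 and 1.05 ± 0.0715 and 1.18 ± 0.0949 in shAMB, in the same order (SD, n = 3 each). In control xenografts it was 2.08, 1.99, 2.16 and 2.02, and in those labelled KO 5.74, 4.56, 5.55 and 4.14, so that RUNX1T1 made up 32.6% ± 0.801 of the ETO family RNA in the former and 16.9% ± 2.19 in the latter (n = 4 each). The groups did not overlap. Among KO xenografts the ratio was highest (5.74) in the library with a GC trend of 0.29 and lowest (4.14) at −0.25. Control xenografts held no such order, with 2.08 at −0.28 and 1.99 at 0.046. The sums that follow do depend on scaling between libraries. Summed over the family, ETO RNA was 14.8 ± 1.97 CPM per kb in control and 24.3 ± 1.80 in KO xenografts, while E-protein RNA was 105 ± 3.97 and 143 ± 13.2. The ratio of E-protein to ETO RNA was 7.23 ± 0.949 and 5.90 ± 0.360, with the lowest control library at 5.88 inside the range of the KO libraries. Within the E proteins, TCF3 made up 8.85% ± 1.57 in control and 4.25% ± 1.34 in KO xenografts, and TCF4 45.0% ± 1.36 and 51.9% ± 1.39. In culture TCF3 made up between 8.32% and 18.8% of E-protein RNA in any library.

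**Figure D3:**
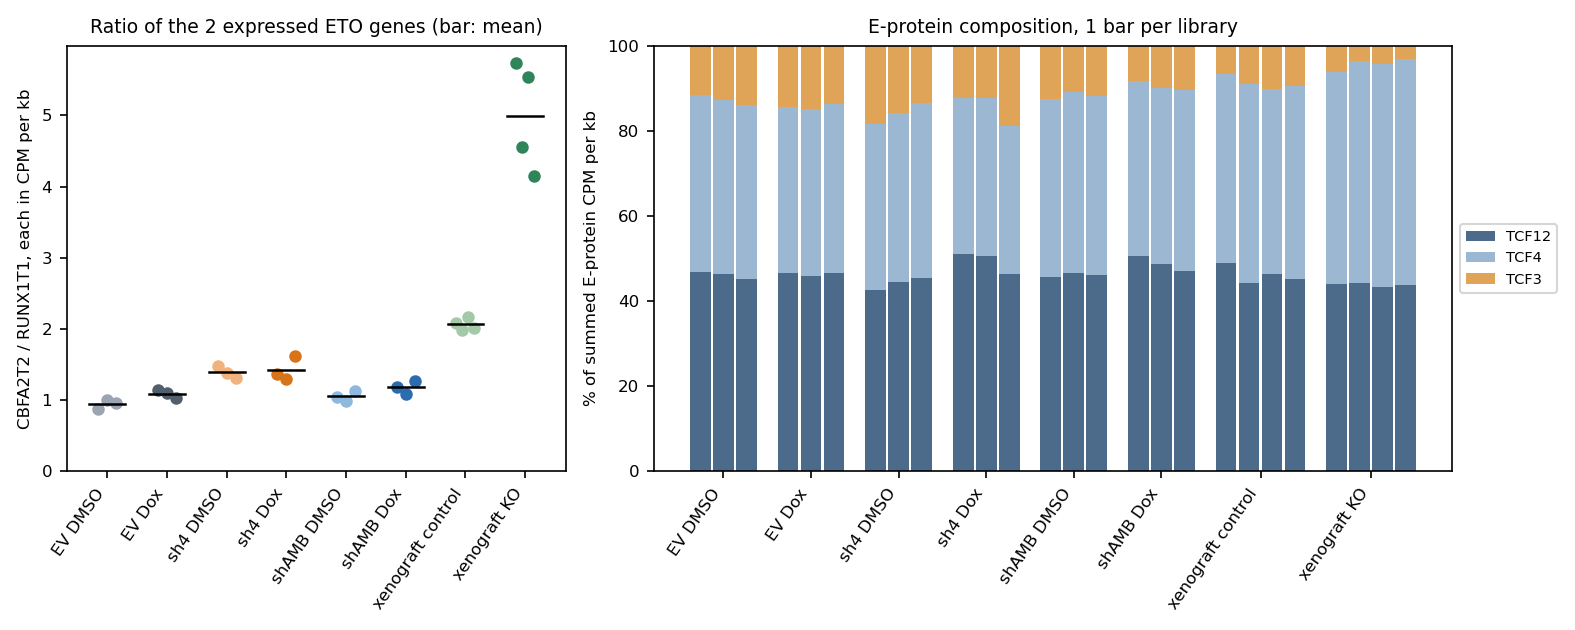
Left, CBFA2T2 divided by RUNX1T1 (both in CPM per kb) in each library by group, with bars at the mean. Right, the shares of TCF12, TCF4 and TCF3 in the summed E-protein CPM per kb, 1 bar per library. The ratio is 4.14 to 5.74 in xenografts labelled KO and at most 2.16 in any other library, and the TCF3 share is smallest, at 3.06%, in a KO xenograft.

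The reported fit was set beside 3 other ways of processing for the members. In xenografts CBFA2T2, TCF3, TCF4 and TCF12 kept direction and call when GC and length trends were removed, at 0.93, −0.77, 0.51 and 0.35. In the deposited TPM, tested with limma, CBFA2T2 alone passed, though the values of TCF4 (0.68), TCF3 (−0.58) and TCF12 (0.43) were of like size. In shAMB, TCF4 (0.21) and TCF12 (0.46) kept their call after removal of the trends, while CBFA2T2 and RUNX3 lost it. In sh4, CBFB (0.34) and TCF12 (0.072) passed, the latter at a much smaller value than in the reported fit, and RUNX1T1 (−0.26), CBFA2T2 (−0.15, adjusted p 0.00377) and TCF4 (−0.30) passed as lower. That removal called 8173 of 14432 genes in sh4, beside 6091 of 14905 in the reported fit.

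**Figure D4:**
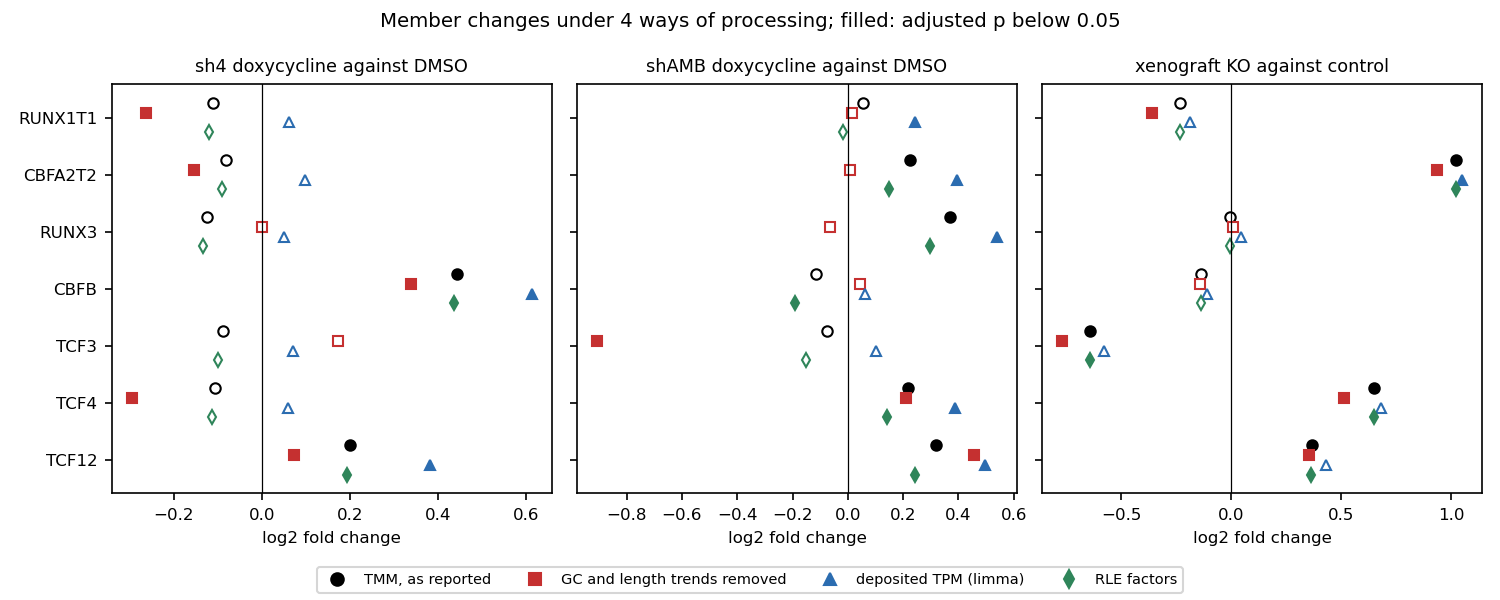
Log2 fold change (horizontal axis) of each tested member under the reported fit, once GC content and length trends were removed, in the deposited TPM with limma and with RLE factors, for sh4, shAMB and xenografts. Filled symbols have an adjusted p under 0.05. CBFB and TCF12 in sh4, TCF4 and TCF12 in shAMB and CBFA2T2 in xenografts are filled under all 4, and TCF3 in shAMB ranges from −0.91 to 0.10.

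The mix of transcripts read from each gene was compared through the length that count and TPM imply together. In genes with 1 transcript this returned the known length with a median error of at most 0.599 bases in any library. RUNX1T1 had an implied length of 7361 to 7389 bases in the 3 shAMB libraries with DMSO and 7308 to 7340 with doxycycline, which did not overlap. TCF4 moved from 7761 to 7791 up to 7826 to 7831 bases in the same comparison. This was not particular to shAMB. With doxycycline TCF4 also moved in sh4, from 7764 to 7775 up to 7810 to 7843 bases. In EV, without a hairpin, it moved by less, from 7785 to 7787.5 up to 7788.3 to 7804 bases, also with no overlap. In xenografts TCF12 had 4545 to 4608 bases in controls and 4554, 4454, 4477 and 4479 in those labelled KO. These lengths were compared after the data had been seen and carry no test.

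The genes whose log2 CPM followed a member most closely over the 18 culture libraries are given as a description. For RUNX1T1 they were GADD45A (Pearson r 0.916), RNASEH2B (0.908) and SLC18A2 (0.907), among 12708 other genes. For TCF3, the member that varied most in culture (SD 0.20 on the log2 scale), they were NADK (0.965), NELFA (0.959) and ZMYND19 (0.952). The points share lines, treatments and base composition: those 3 genes have 56.5%, 60.8% and 61.6% GC content beside a median of 47.9% over genes tested.

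The partners through which ETO and E proteins act were read from 5 lists, beside 40.9% of all genes past the threshold in sh4, 66.0% in shAMB and 41.1% in xenografts. Of 14 co-repressor genes, 3 rose and 3 fell in sh4, 4 rose and 7 fell in shAMB, and 1 rose and 5 fell in xenografts (medians −0.044, −0.17 and −0.24), or 6, 11 and 6 in all. Among the CoREST proteins, the study reported binding to RUNX1T1 for RCOR3 only. RCOR1, another CoREST subunit, fell by 0.49 in sh4 (38.8 ± 1.21 to 27.6 ± 1.18 CPM, adjusted p 8.18e-07). Its paralog RCOR2 rose by 1.09 in shAMB (21.9 ± 2.19 to 46.5 ± 5.18 CPM, adjusted p 0.000177), but by 0.18 (adjusted p 0.0157) once GC and length trends were removed, and the deacetylase HDAC1 fell by 0.83 in xenografts (92.1 ± 10.05 to 51.7 ± 2.29 CPM, adjusted p 8.01e-05) and also in shAMB (−0.66, adjusted p 3.78e-10) but rose by 0.28 in sh4 (adjusted p 1.06e-05).

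Of 19 genes of E-protein complexes (helix-loop-helix, LMO, LDB, SSBP and GATA factors), 17 were tested, and 5 rose and 5 fell in sh4, 8 rose and 5 fell in shAMB, and 4 rose and 6 fell in xenografts (medians −0.040, 0.24 and −0.080). LMO3, a LIM-only protein of neuroblastoma, fell by 1.33 in sh4 (54.5 ± 3.77 to 21.7 ± 1.93 CPM, adjusted p 1.34e-08). It also fell in shAMB (−2.03, adjusted p 5.5e-11) and in xenografts (−1.496, adjusted p 8.1e-05). LYL1, a helix-loop-helix factor of blood cells, changed by 2.63 in shAMB (adjusted p 6.22e-05), from 0.121 ± 0.0940 to 0.759 ± 0.0639 CPM, and had 1 to 8 counts per library with DMSO. LMO2, its known partner in blood cells, rose by 1.68 in xenografts (1.401 ± 0.344 to 4.50 ± 1.21 CPM, adjusted p 0.000501).

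The ID genes encode proteins that hold E proteins off DNA. None of 4 passed the threshold in sh4 (2 at an unadjusted p under 0.05), 3 rose in shAMB and 1 fell in xenografts (medians −0.094, 0.91 and −0.010). In sh4, ID3 passed as lower in some alternatives, by 0.45 (edgeR adjusted p 0.0144) once GC and length trends were removed. It did not pass with DESeq2 (−0.68, adjusted p 0.0603). ID3 rose by 1.90 in shAMB (35.2 ± 6.16 to 131 ± 16.9 CPM, adjusted p 2.3e-05) and by 1.605 (adjusted p 2.44e-08) once GC and length trends were removed, and ID2, the most abundant of them, fell by 1.01 in xenografts (44.5 ± 7.05 to 22.1 ± 1.36 CPM, adjusted p 0.000108). Summed ID RNA stood in a ratio to summed E-protein RNA per kb of 2.05 ± 0.0881 in shAMB with DMSO and 2.51 ± 0.187 with doxycycline. It went from 2.30 ± 0.176 to 2.47 ± 0.118 in EV and from 2.51 ± 0.173 to 2.31 ± 0.216 in sh4, so that sh4 cells with DMSO were at the level of shAMB cells with doxycycline. The ratio was 0.398 ± 0.0807 in control xenografts and 0.186 ± 0.0442 in those labelled KO, with no overlap between xenograft groups.

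Of the 4 Groucho (TLE) genes in the tables, co-repressors that RUNX proteins recruit, 2 rose and 1 fell in sh4, 2 rose and 2 fell in shAMB, and 1 rose in xenografts (medians 0.27, 0.17 and 0.17). TLE1 fell by 0.67 in sh4 (26.6 ± 0.630 to 16.7 ± 0.979 CPM, adjusted p 3.9e-07) and also in shAMB (−1.09, adjusted p 7.89e-10). TLE2 rose by 2.50 in shAMB (0.147 ± 0.0840 to 0.837 ± 0.0475 CPM, adjusted p 8.14e-05) from 3 to 9 counts per library with DMSO, and by 1.57 once GC and length trends were removed. In xenografts TLE2 changed by 1.399 (adjusted p 0.0235), with the KO libraries at 1.59, 0.616, 0.638 and 0.442 CPM, and by 0.86 (adjusted p 0.0606) without the first of them. That call was also lost without control replicate 1, 2 or 4. Of 5 zinc-finger factors that recruit ETO proteins, 4 were tested, with 1 higher in sh4, 3 in shAMB and 2 in xenografts (medians 0.13, 0.52 and 0.48). ZBTB33 (Kaiso) rose by 0.25 in sh4 (97.8 ± 7.71 to 116 ± 12.8 CPM, adjusted p 0.0203), a call that was lost without the first or second library of either group, and by 0.071 once GC and length trends were removed. ZBTB16 (PLZF), a repressor known to bind RUNX1T1, rose by 3.61 in shAMB (0.112 ± 0.0551 to 1.401 ± 0.285 CPM, adjusted p 6.74e-07) and by 2.12 in xenografts (1.38 ± 0.379 to 6.01 ± 1.61 CPM, adjusted p 0.000177), from 2 to 6 counts per shAMB library with DMSO. In the EV line none of these 43 tested partner genes passed the threshold by edgeR (2 at an unadjusted p under 0.05).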

How the data were processed

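RNA was sequenced in 18 libraries of KELLY culture and 8 of xenografts. The authors deposited expected counts per gene for each table, with TPM (length-scaled transcript shares) and gene lengths. Per the submitters' processing notes, reads were processed with STAR, SAMtools and RSEM on hg38. Versions are stated by the study for its mouse ganglia libraries only. Deposited expected counts were whole for 91.8% of values in culture and 91.0% in xenografts, and were rounded. All columns mapped to a sample, and 0 were set aside. Deposited TPM served only as an alternative, as log2(TPM + 0.1) with limma.

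Genes were kept with filterByExpr (14905 in culture, 15960 in xenografts), scaled by TMM and tested in edgeR 4.0.16 (R 4.3.3) with the quasi-likelihood test and Benjamini-Hochberg adjustment over all genes tested, called under 0.05. The 18 culture libraries shared one fit, and the xenograft libraries had their own. No step separated mouse from human reads here. CPM per kb divides by the deposited gene length. Alternatives used DESeq2 1.42.0, limma 3.58.1, RLE factors, no filter, a replicate block, only the groups compared, a log2 fold change of at least 1, left-out libraries, and loess removal (span 0.3) of GC content and length trends per library. That removal also takes out biology that tracks GC content. The procedure was also run on simulated counts, with no GC trend and far fewer changed genes than here. That run cannot show how calls fare under the GC trends of these libraries. The bound given for a count of 0 covers counting error only, while intervals of fold changes come from the edgeR fit and include the spread between libraries.

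The members, by symbol, and the lists were chosen with earlier results of these data known. All members are named, and of each list the gene with the largest change past the threshold in sh4, shAMB and xenografts. For likeness, the 3 genes with the highest Pearson correlation are named for RUNX1T1 and for the member with the largest SD.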

Additional observations from a re-analysis of the deposited data

Results flagged for a closer look

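In the xenografts labelled KO, 1 library stood apart from the other 3 for CBFB (71.2 CPM, a gap of 0.872 of the group's range) and for TCF4 (480 CPM, a gap of 0.877), both times replicate 1. This library also had the steepest trend on GC content of the KO xenografts (0.29 on the log2 scale per 10 points), and the part of that trend was not tested. CBFB (40.6% GC) and TCF4 (38.2% GC) are members of low GC content. Chance flags about 1 in 20 groups. Of 14 groups checked, 2 were flagged, and as both flags come from replicate 1 they are not independent. Without this library CBFB changed by −0.013 (edgeR adjusted p 0.922) and TCF4 by 0.73 (7.12e-05).

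The effect of doxycycline differed between lines by a test of the difference itself for 6 members. Of all genes tested, 32.6% differed for sh4 against EV, 45.5% for shAMB against EV and 60.9% for sh4 against shAMB. Against the EV line, the effect was higher in sh4 for CBFB by 0.50 on the log2 scale, and higher in shAMB for RUNX1T1 by 0.21, TCF4 by 0.33 and TCF12 by 0.36. In sh4 against shAMB, the difference was −0.30 for CBFA2T2, −0.49 for RUNX3, 0.56 for CBFB and −0.32 for TCF4. The RUNX1T1 and RUNX3 differences were both lost once GC content and length trends were removed, as given with their values above.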

How the results depend on the processing

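In EV the count of members past the threshold was 0 under every alternative run. The counts that moved by over 1.5 times are these, by setting. With GC content and length trends removed there were 5 in sh4, 3 for sh4 against EV effects and 1 for the shAMB line with DMSO. That setting also called more of all genes in these comparisons. It called 8173, 6630 and 877 of 14432, beside 6091, 4856 and 227 of 14905 in the reported fit. In the deposited TPM there were 3 members for sh4 against EV effects, 5 for shAMB against EV effects, 1 for the sh4 line and 1 in xenografts. With RLE factors or no filter there was 1 for the sh4 line, and with no filter or only the groups compared 1 in sh4. With a log2 fold change of at least 1 there was 1 in xenografts and 0 in each other comparison. Leaving out single libraries gave 1 to 3 members in sh4, 1 to 3 for sh4 against EV effects and 0 to 1 for the sh4 line.

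Replicate numbers did not pair the samples (correlation of deviations −0.806 to 0.429). With the replicate block, 1 member passed in the sh4 line, and TCF12 in xenografts (adjusted p 0.0589), RUNX1T1 for shAMB against EV effects (0.0513) and CBFA2T2 in the sh4 line (0.0546) lost their call.

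Signs turned as follows, on the log2 scale. With the trends removed, TCF3 was −0.14 in EV and 0.17 in sh4, RUNX3 was 0.00072 in sh4, −0.066 in shAMB, 0.067 for sh4 against shAMB effects and 0.0067 in xenografts, and CBFB was 0.045 in shAMB. In TPM, sh4 values were 0.062 (RUNX1T1), 0.097 (CBFA2T2), 0.050 (RUNX3), 0.071 (TCF3) and 0.058 (TCF4), shAMB values 0.062 (CBFB) and 0.10 (TCF3), and RUNX3 in xenografts 0.045. RUNX1T1 in shAMB was −0.019 with RLE factors, −0.018 with DESeq2 and −0.024 with only the groups compared. RUNX3 in xenografts was 0.0041 with the replicate block and −0.10 to 0.056 with single libraries left out (above 0 without control replicate 2 or 3 or KO replicate 1 or 2). TCF3 in sh4 was 0.0012 and 0.0045 without the first or second doxycycline library and −0.29 without the third. In shAMB, CBFA2T2 lost its call with only the groups compared (0.14, adjusted p 0.0620). RUNX1T1 passed in sh4 without the second doxycycline library (−0.16, 0.0434). The causes were not tested. The median of all genes in shAMB was 0.096 with TMM and 0.021 with RLE factors. Depth left CBFA2T3, RUNX1 and RUNX2 untested.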
